A study of Mus musculus with 17 samples.

Results

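Whether replication and mitosis genes differ in the hippocampus of mice with an added copy of part of chromosome 16 was examined with 32 genes, chosen by name as known components of DNA replication and cell division. All 32 were found among the 55385 gene rows of the deposited tables. They were grouped by role into 11 genes of DNA replication and its nucleotide supply, 11 genes of mitotic kinases, cyclins and the checkpoint, and 10 genes of the spindle, the kinetochore and chromosome structure. The rule picks the genes by name, and they were chosen with earlier results of these data known. The filter on low counts kept 30 of the 32, and only Bub1 and Aurkb were too low in every group to be tested.

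The tissue was the brain hippocampus of adult mice with no treatment listed, 1 polyadenylated RNA library per mouse. The 6 WT mice were C57BL/6J (3 females and 3 males, aged 17.1 to 18.0 weeks). The 6 Dp16 mice carried the Dp(16)1Yey duplication, an added copy of the part of mouse chromosome 16 whose genes correspond to human chromosome 21 genes (3 females and 3 males, aged 17.1 to 18.0 weeks). The 5 Dp16_2xIFNRs mice carried the same duplication with the interferon receptor genes within it returned to the normal copy number (3 females and 2 males, aged 17.7 to 18.0 weeks). The duplication is present in every cell of the mouse, and the libraries hold RNA of the whole tissue. Total counts per library lay between 30.4 and 33.1 M (M, mega), and the 32 genes together received 4362 to 5113 counts per library. In whole tissue, fewer cells of a type and less RNA per cell cannot be told apart.

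A cell that enters the division cycle first switches on replication genes under E2F factors: the MCM helicase that opens the DNA, the sliding clamp PCNA and the enzymes that make deoxynucleotides. Later, the cyclin B and CDK1 kinase, Aurora and Polo kinases and the spindle proteins are made for mitosis. Their promoters are known for CCAAT boxes and for the cell cycle genes homology region, or CHR. In the adult hippocampus, dividing cells are mainly neural stem and progenitor cells of the dentate gyrus, oligodendrocyte precursors and a few microglia and vascular cells, while neurons have left the cycle.

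RefSeq promoters (GRCm38.p6, from 250 bases before to 50 after the start site) were matched by symbol for 27 of the 32 genes. Promoters of 4 genes are shown because these genes include the lowest p-values of each role against WT, and because their motif sets are not all the same. The letters run 5′ to 3′ on the gene's strand, from 250 bases before the start site to 30 bases after it. Capitals mark the E2F site (TTTCCCGC, TTTGGCGC, TTTCGCGC or TTTGCCGC), the CHR (TTTGAA) and the CCAAT box (CCAAT), each searched on both strands.
Rrm2, chr12:24708004-24708283, plus strand: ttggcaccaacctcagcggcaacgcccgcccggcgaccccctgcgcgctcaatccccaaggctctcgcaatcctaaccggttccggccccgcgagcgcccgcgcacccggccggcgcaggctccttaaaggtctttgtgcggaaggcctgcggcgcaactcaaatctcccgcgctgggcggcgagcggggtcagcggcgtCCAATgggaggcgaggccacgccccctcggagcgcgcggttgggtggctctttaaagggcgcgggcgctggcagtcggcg
Mcm7, chr5:138171854-138172133, minus strand: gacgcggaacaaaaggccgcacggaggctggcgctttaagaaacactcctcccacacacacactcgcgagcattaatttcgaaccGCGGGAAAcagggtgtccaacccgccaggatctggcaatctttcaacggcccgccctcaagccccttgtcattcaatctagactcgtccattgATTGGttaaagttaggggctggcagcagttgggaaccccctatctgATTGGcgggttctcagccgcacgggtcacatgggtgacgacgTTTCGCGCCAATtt
Ccnb2, chr9:70421525-70421804, minus strand: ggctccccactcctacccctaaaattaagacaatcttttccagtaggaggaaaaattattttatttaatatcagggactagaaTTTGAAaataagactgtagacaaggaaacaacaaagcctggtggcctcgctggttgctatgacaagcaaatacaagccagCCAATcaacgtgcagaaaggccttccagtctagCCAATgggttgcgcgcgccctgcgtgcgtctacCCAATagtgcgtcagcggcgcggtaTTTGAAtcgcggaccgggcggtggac
Cenpe, chr3:135212313-135212592, plus strand: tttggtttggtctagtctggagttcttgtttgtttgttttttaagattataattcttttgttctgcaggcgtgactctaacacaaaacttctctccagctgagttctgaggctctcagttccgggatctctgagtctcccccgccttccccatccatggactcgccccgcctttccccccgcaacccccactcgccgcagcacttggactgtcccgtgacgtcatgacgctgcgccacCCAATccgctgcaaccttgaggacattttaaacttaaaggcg

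The Rrm2 and Cenpe windows hold a CCAAT box and no other motif of the search. Mcm7 is listed with another start site as well, not printed here. Its printed window holds an E2F site on each strand and 3 CCAAT boxes, 1 of which overlaps the E2F letters after the start site. Ccnb2 holds 3 CCAAT boxes, and its CHR stands 5 bases after the start site, with another CHR match farther upstream. Over the 27 genes, an E2F site was found in 5 promoters (18.5%), a CHR in 13 (48.1%) and a CCAAT box in 23 (85.2%). Among all 27025 genes with a RefSeq promoter, the shares were 2.60%, 20.2% and 41.1%. The E2F letters stood in 4 of 10 replication genes with a promoter, 1 of 9 genes of mitotic kinases and cyclins and 0 of 8 spindle genes. The CHR letters stood in 1 of 10, 6 of 9 and 6 of 8 of them. A match is only a match of letters, and no match says only that these letters are not in this window.

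Most of the 32 genes were weakly expressed. Levels between genes are compared in RPKM, reads per kilobase of gene and per M reads, as the authors deposited them. Only 9 of the 32 genes reached 1 RPKM on average, and 16 lay under 0.5 RPKM. Of the 30 tested, 21 lay below the 30th percentile of mean CPM of all tested genes. CPM are counts per M counts after scaling of the libraries, and each fold change below is on this count scale. The lowest counts were 1 to 11 per library for Aurkb and 2 to 11 for Bub1, the kinases of the chromosomal passenger complex and of the spindle checkpoint. No gene of the 32 had a count of 0 in any library.

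Replication genes held most of the signal. Their 11 members made up 82.7% of the summed CPM of the 32 genes and 87.5% of the summed RPKM. Pcna, the sliding clamp that also serves DNA repair, was the highest at 24.9 RPKM and gave 25.5% of the summed CPM. Ccne1, the cyclin that drives entry into S phase, followed at 6.08 RPKM, and Rrm1, the large subunit of ribonucleotide reductase, at 4.69 RPKM. Mcm7, Mcm4 and Mcm6 of the MCM helicase lay at 3.67, 3.34 and 3.31 RPKM, and their mice overlapped. Mki67, the gene of the Ki-67 protein used to mark dividing cells, stood at 0.146 RPKM, and Cdk1, the kinase that starts mitosis, at 0.0952 RPKM.

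**Figure D1:**
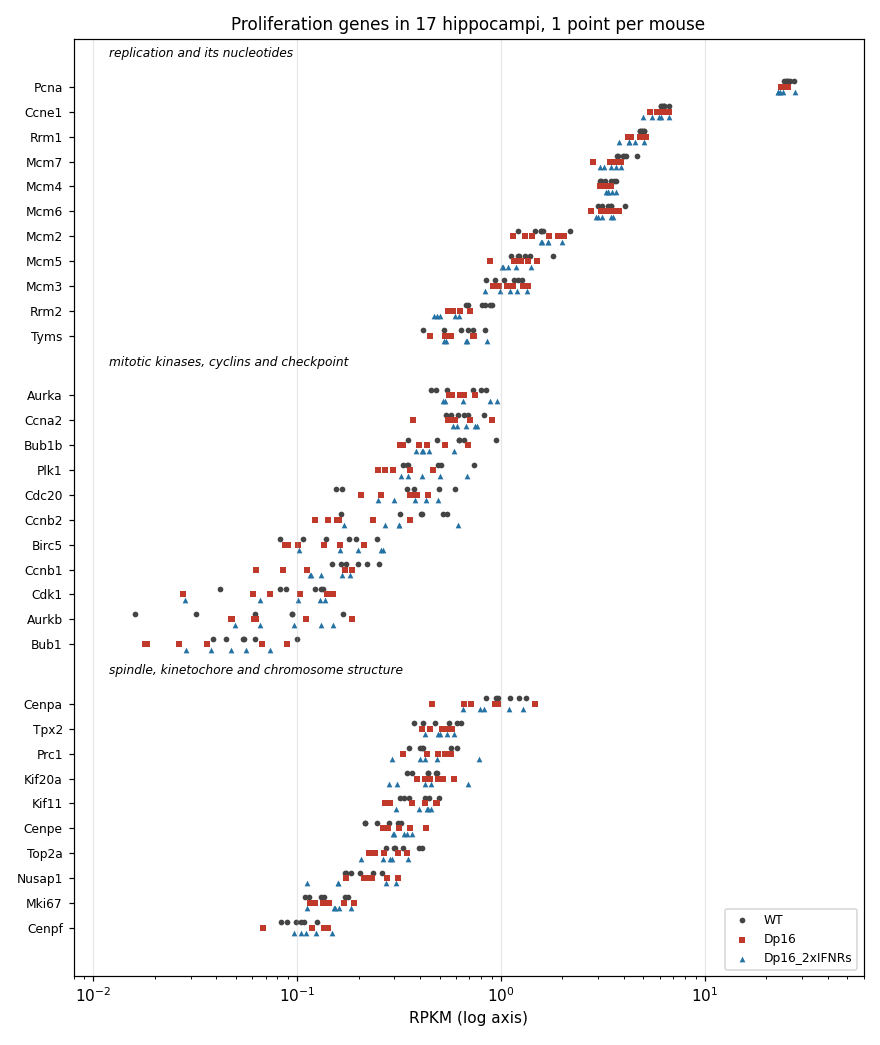
RPKM (log axis) of the 32 genes in each of the 17 mice, grouped by role, with 1 point per mouse and a symbol and colour per genotype. Pcna lies near 24.9 RPKM, the other replication genes lie below it, and Aurkb and Bub1 are the lowest genes. The 3 genotypes overlap in every gene except Rrm2, where Dp16_2xIFNRs lies below WT.

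Summed over the 32 genes, Dp16 overlapped WT, and Dp16_2xIFNRs overlapped WT through replicate 1 alone. The lowest, median and highest WT mice had 146.1, 154.1 and 158.2 CPM, and the Dp16 mice had 141.2, 149.0 and 149.3 CPM. The Dp16_2xIFNRs mice, replicates 1 to 5, had 153.5, 141.6, 140.7, 138.6 and 143.3 CPM. Means were 153 ± 5.23 CPM in WT (SD, n = 6), 148 ± 3.20 CPM in Dp16 (SD, n = 6) and 144 ± 5.80 CPM in Dp16_2xIFNRs (SD, n = 5), and the groups overlapped. The ratios of means to WT were 0.966 for Dp16 and 0.939 for Dp16_2xIFNRs, with no test of a sum over chosen genes. Replication genes summed to 127 ± 5.68 CPM in WT, 122 ± 4.06 CPM in Dp16 and 118 ± 4.26 CPM in Dp16_2xIFNRs. In this sum too, only replicate 1 of Dp16_2xIFNRs (124.9 CPM) reached the lowest WT mouse (119.5 CPM). Genes of mitotic kinases, cyclins and the checkpoint summed to 9.89 ± 0.895 CPM in WT, 8.33 ± 1.19 CPM in Dp16 and 9.34 ± 1.15 CPM in Dp16_2xIFNRs. Spindle and chromosome genes summed to 16.2 ± 1.28, 16.9 ± 1.17 and 16.4 ± 0.805 CPM in the same order. All of these role sums overlapped between genotypes.

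**Figure D2:**
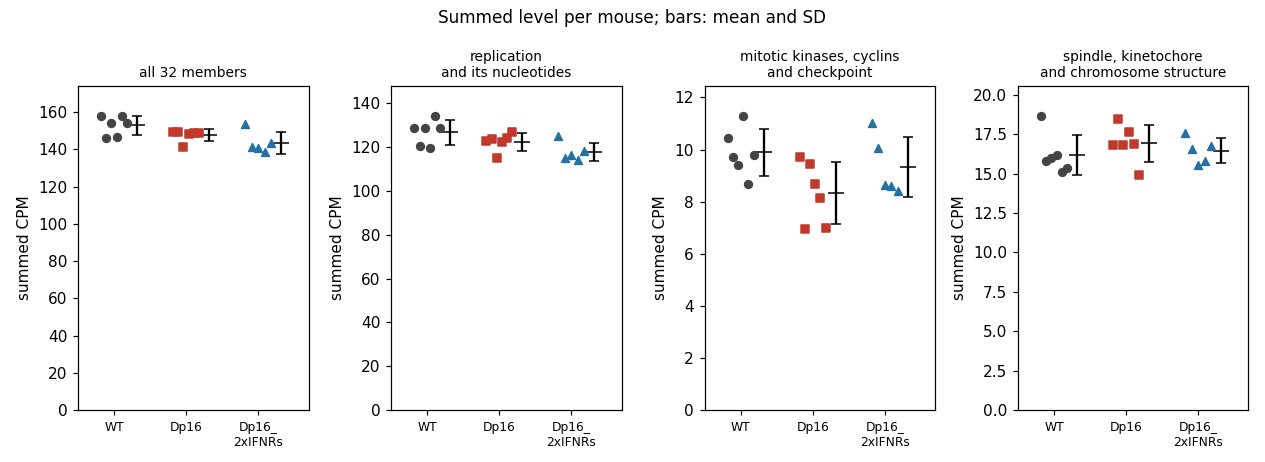
Summed CPM per mouse for all 32 genes and for each role (vertical axes from 0), by genotype, with 1 point per mouse and the mean and SD beside the points. For all 32 genes the WT mice lie between 146.1 and 158.2 CPM, the Dp16 mice between 141.2 and 149.3 CPM and the Dp16_2xIFNRs mice between 138.6 and 153.5 CPM, so the groups overlap. Only 1 Dp16_2xIFNRs mouse lies within the WT range.

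The first comparison asks what the duplication goes with, Dp16 against WT. No gene of the 30 passed the test (edgeR quasi-likelihood, with p-values adjusted by Benjamini-Hochberg over the whole set of 18983 genes and called under 0.05), beside 0.548% of all tested genes. At an unadjusted p under 0.05 there were 5 of 30 (16.7%), beside 9.42% of all tested genes. Of these, 4 had lower means in Dp16 (Rrm2, Mcm7, Ccnb1 and Ccnb2), beside 3.85% of all tested genes, and 1 had a higher mean (Cenpe), beside 5.57%. This count of 5 rose to 7 without Dp16 replicate 3 and to 6 without Dp16 replicate 1 or 5. It was 3 without WT replicate 2, WT replicate 4 or Dp16 replicate 2, and 2 without WT replicate 6 or Dp16 replicate 4. It was also 3 without the 3 mice that nearly lack choroid plexus markers, 3 of 25 genes with a filter of 1 CPM in 5 libraries, and 2 with the number series of the mouse identifier as a covariate. Other tools also called 0 of them, and their counts at an unadjusted p under 0.05 were 4 in DESeq2 and 5 in limma-voom. The median log2 fold change of the 30 genes was -0.037, beside -0.0059 for all tested genes, and 9 of 30 were above 0.

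For Dp16_2xIFNRs against WT, which compares mice that keep the duplication but have the normal receptor dosage, again 0 of 30 genes passed in edgeR, beside 1.02% of all tested genes. At an unadjusted p under 0.05 there were 4 of 30 (13.3%), all with lower means, beside 16.8% of all tested genes in either direction and 8.50% lower. They were Rrm2, Mcm7, Rrm1 and Bub1b. The count rose to 5 without Dp16_2xIFNRs replicate 1. It was 2 without Dp16_2xIFNRs replicate 2 or replicate 3 and 2 without the 3 mice that nearly lack choroid plexus markers. limma-voom called 0 with 3 at an unadjusted p under 0.05, and DESeq2 called Rrm2 alone, with 4. The median log2 fold change was -0.015, beside 0.0043 for all tested genes, and 14 of 30 were above 0. Both comparisons share the WT mice.

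Dp16_2xIFNRs against Dp16 asks what the receptor dosage goes with inside the duplication. No gene passed in edgeR, beside 0.0158% of all tested genes, and 0 of 30 reached an unadjusted p under 0.05, beside 10.2% of all tested genes. DESeq2 and limma-voom called 0 as well, with 0 at an unadjusted p under 0.05. The edgeR count at an unadjusted p under 0.05 was 2 without Dp16 replicate 4 or Dp16_2xIFNRs replicate 1. It was 1 without Dp16 replicate 1 or 5, without Dp16_2xIFNRs replicate 3 or 4, and with age as a covariate. The median log2 fold change was -0.029, beside -0.0073 for all tested genes. The median half-width of the 95% intervals of single genes was 0.39, so smaller differences were mostly not detectable here.

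With both duplication groups averaged against WT, 0 of 30 genes passed in edgeR, beside 1.07% of all tested genes, and 6 of 30 had an unadjusted p under 0.05, beside 14.4%. DESeq2 called Rrm2, with 6 at an unadjusted p under 0.05, and limma-voom called 0, with 7. This edgeR count went to 3 without WT replicate 6, to 9 without Dp16_2xIFNRs replicate 1, and to 3 with the identifier series as a covariate or without the 3 mice that nearly lack choroid plexus markers.

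**Figure D3:**
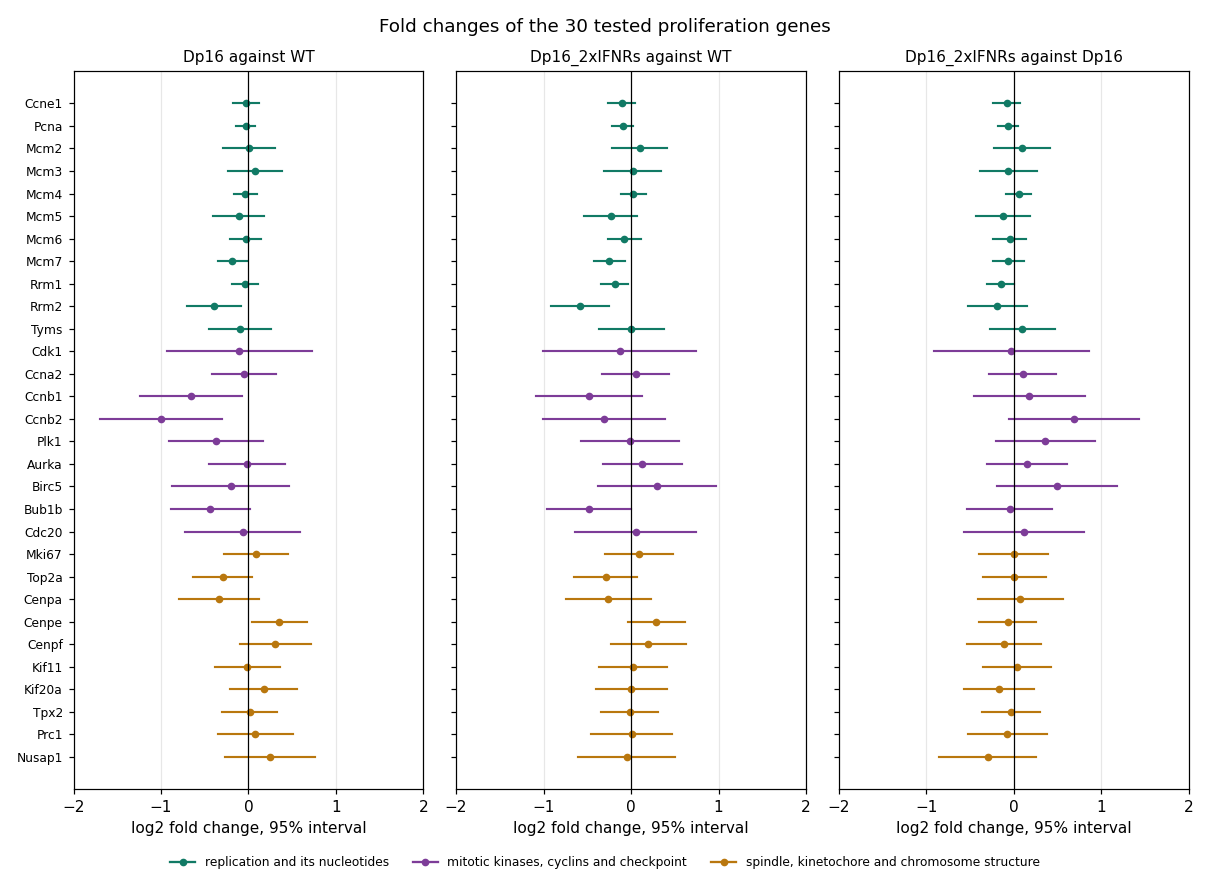
Log2 fold change (points) and 95% interval (lines) of the 30 tested genes in the 3 comparisons, coloured by role, from the fit to all tested genes. In Dp16 against WT the 9 genes of mitotic kinases and cyclins lie at or below 0, with Ccnb2 lowest at -1.0, and in Dp16_2xIFNRs against WT the lowest is Rrm2 at -0.58.

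Among the replication genes, Rrm2 showed the lowest p-values. Rrm2 encodes the small subunit of ribonucleotide reductase, the enzyme that makes deoxynucleotides, and it is made mainly in S phase. The lowest, median and highest WT mice had 1.48, 1.75 and 2.04 CPM, and the Dp16 mice 1.20, 1.27 and 1.58 CPM. Dp16_2xIFNRs replicates 1 to 5 had 1.03, 1.26, 1.08, 1.05 and 1.38 CPM, all below every WT mouse. WT and Dp16 overlapped. Rrm2 was the only gene of the 30 whose groups did not overlap in any of the 3 comparisons, 1 of 30 in Dp16_2xIFNRs against WT, beside 2.17% of all tested genes in either direction and 0.969% lower. In Dp16 against WT 0 of 30 did not overlap, beside 0.990%, and in Dp16_2xIFNRs against Dp16 0 of 30, beside 0.616%. The log2 fold change of Rrm2 was -0.58 ± 0.16 (SE) in Dp16_2xIFNRs against WT, with an edgeR adjusted p of 0.0852. In Dp16 against WT it was -0.40 ± 0.15 (SE), with an edgeR adjusted p of 0.397. Dp16_2xIFNRs and Dp16 differed in Rrm2 by -0.18, with a 95% interval from -0.52 to 0.15. Rrm2 therefore missed the threshold in edgeR, and it passed in DESeq2 for Dp16_2xIFNRs against WT (adjusted p of 0.0486). Its adjusted p over the alternatives of that comparison ran from 0.0416 to 0.269, the highest without Dp16_2xIFNRs replicate 3. Counts of Rrm2 were 32 to 64 per library.

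The partner subunit Rrm1 stood at 4.69 RPKM, beside 0.650 RPKM for Rrm2, and was closer between groups. WT mice had 19.0, 19.6 and 20.4 CPM (lowest, median, highest), and Dp16 mice 17.3, 19.1 and 21.0 CPM. In Dp16_2xIFNRs, replicates 1 to 5 had 20.2, 16.4, 14.9, 17.9 and 17.2 CPM, so 4 of 5 lay below every WT mouse and replicate 1 among them. The log2 fold change was -0.19 ± 0.074 (SE) in Dp16_2xIFNRs against WT, with an edgeR adjusted p of 0.213, and -0.039 in Dp16 against WT. Tyms, which makes the thymidine nucleotide, was at 2.01 ± 0.438 CPM in WT, 1.89 ± 0.350 CPM in Dp16 and 2.05 ± 0.390 CPM in Dp16_2xIFNRs.

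Mcm7 belongs to the hexameric MCM helicase, and it stood lower in both duplication groups without passing the test. WT mice had 10.8, 11.8 and 13.9 CPM (lowest, median, highest), and Dp16 mice 8.66, 10.8 and 11.3 CPM. Dp16_2xIFNRs replicates 1 to 5 had 10.9, 11.1, 10.1, 8.92 and 9.62 CPM. Both groups overlapped WT. Its log2 fold change was -0.19 ± 0.080 (SE) in Dp16, with an edgeR adjusted p of 0.492, and -0.25 ± 0.085 (SE) in Dp16_2xIFNRs, with an edgeR adjusted p of 0.158. The Mcm7 gene shares exon bases with Ap4m1 and Cops6 on the other strand and with Mir25 and Mir93 on its own. Cops6 reached 92.2 CPM on average and the strand setting of the counting is not stated, so the Mcm7 value is less certain.

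The other MCM subunits, which load together onto replication origins, were closer to 0. In Dp16 against WT, Mcm2, Mcm3, Mcm4, Mcm5 and Mcm6 had log2 fold changes of 0.0048, 0.076, -0.035, -0.11 and -0.034. In Dp16_2xIFNRs against WT they had 0.10, 0.016, 0.024, -0.23 and -0.078. Mcm4 is the only gene of the 32 on chromosome 16, at chr16:15623897-15637400 on GRCm38. It lies outside the duplicated segment, taken as chr16:75540514-97962622, and its means were 12.01 ± 0.820 CPM in WT, 11.7 ± 0.570 CPM in Dp16 and 12.2 ± 0.372 CPM in Dp16_2xIFNRs. Pcna was at 38.9 ± 1.53 CPM in WT, 38.0 ± 1.28 CPM in Dp16 and 36.5 ± 3.32 CPM in Dp16_2xIFNRs. Its 95% intervals against WT were narrow, from -0.14 to 0.076 in Dp16 and from -0.21 to 0.019 in Dp16_2xIFNRs on the log2 scale. Ccne1 was at 12.5 ± 0.460, 12.3 ± 1.09 and 11.6 ± 1.23 CPM in the same order. Over the 11 replication genes, the median log2 fold change was -0.035 in Dp16 and -0.098 in Dp16_2xIFNRs, with 2 and 4 of 11 genes above 0.

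The summed level of the mitotic kinases and cyclins had its lowest mean in Dp16, as given above, with mice that overlapped the other groups. Single genes varied, and the lowest mean was in Dp16_2xIFNRs for Cdk1 and Bub1b and in WT for Aurkb. All 9 tested had a negative log2 fold change in Dp16 against WT, with a median of -0.20, and none passed the test. In Dp16_2xIFNRs against WT 4 of 9 were above 0, with a median of -0.012, and in Dp16_2xIFNRs against Dp16 7 of 9 were above 0, with a median of 0.15. These 3 comparisons share their mice, and the genes share sources of error within a library, so the counts of signs are a description.

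Ccnb2, a B-type cyclin that activates CDK1 at the start of mitosis, had the lowest fold change of the 30. WT mice had 0.248, 0.629 and 0.845 CPM (lowest, median, highest), and Dp16 mice 0.188, 0.251 and 0.550 CPM. The Dp16_2xIFNRs mice, replicates 1 to 5, had 0.485, 0.913, 0.254, 0.476 and 0.417 CPM. Most Dp16 mice were low, yet they overlapped WT, and 1 WT mouse was as low as the Dp16 median. On the log2 scale the fold change was -1.0 ± 0.33 (SE) in Dp16 against WT, with an edgeR adjusted p of 0.309, and -0.31 in Dp16_2xIFNRs against WT. In Dp16_2xIFNRs against Dp16 it was 0.69, with a 95% interval from -0.053 to 1.43. These values rest on 6 to 29 counts per library. The row of a Ccnb2 pseudogene held 4 to 22 counts per library, 265 in all beside 254 for Ccnb2, and its means were 0.492, 0.590 and 0.363 CPM in WT, Dp16 and Dp16_2xIFNRs. How the counting split reads between near-identical copies is not stated, so the Ccnb2 value is uncertain.

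Ccnb1, the other B-type cyclin, showed a similar order at 5 to 19 counts per library. WT mice had 0.370, 0.475 and 0.619 CPM (lowest, median, highest), and Dp16 mice 0.157, 0.283 and 0.453 CPM. Dp16_2xIFNRs replicates 1 to 5 had 0.452, 0.315, 0.285, 0.286 and 0.417 CPM. All 3 groups overlapped. The log2 fold change was -0.66 ± 0.28 (SE) in Dp16, with an edgeR adjusted p of 0.483, and -0.48 ± 0.29 (SE) in Dp16_2xIFNRs, with an edgeR adjusted p of 0.416. Cdk1, their kinase, was at 0.444 ± 0.157, 0.416 ± 0.212 and 0.408 ± 0.202 CPM in WT, Dp16 and Dp16_2xIFNRs. Ccna2, the cyclin of S phase and early mitosis, was at 2.35 ± 0.393, 2.27 ± 0.630 and 2.42 ± 0.278 CPM.

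Bub1b encodes BUBR1, a checkpoint protein that holds back anaphase until every chromosome is attached. WT mice had 1.27, 2.28 and 3.35 CPM (lowest, median, highest), and Dp16 mice 1.21, 1.51 and 2.54 CPM. In Dp16_2xIFNRs, replicates 1 to 5 had 2.16, 1.35, 1.59, 1.49 and 1.54 CPM. The WT mice spread most widely and overlapped both groups. Its log2 fold change was -0.44 ± 0.22 (SE) in Dp16, with an edgeR adjusted p of 0.549, and -0.48 ± 0.23 (SE) in Dp16_2xIFNRs, with an edgeR adjusted p of 0.296. Bub1, its partner kinase, was at 0.203 ± 0.0777, 0.146 ± 0.0990 and 0.166 ± 0.0617 CPM in WT, Dp16 and Dp16_2xIFNRs and was not tested.

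Plk1, the Polo kinase of mitotic entry, had log2 fold changes of -0.37 in Dp16 and -0.012 in Dp16_2xIFNRs against WT. Aurka, the Aurora kinase of spindle poles, had -0.019 and 0.13. Cdc20, which activates the anaphase-promoting complex, had -0.065 and 0.052, and Birc5, the survivin subunit of the chromosomal passenger complex, -0.20 and 0.30. The 95% intervals of these 4 genes all included 0. Aurkb, the kinase of that complex, was at 0.152 ± 0.106, 0.168 ± 0.103 and 0.191 ± 0.0812 CPM and was not tested.

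Mki67, the usual marker of proliferation, did not separate the genotypes. WT mice had 1.09, 1.31 and 1.79 CPM (lowest, median, highest), and Dp16 mice 1.16, 1.42 and 1.94 CPM. Dp16_2xIFNRs replicates 1 to 5 had 1.62, 1.79, 1.49, 1.11 and 1.57 CPM. The ranges overlapped almost wholly. On the log2 scale the fold change was 0.090 ± 0.18 (SE) in Dp16 and 0.091 ± 0.18 (SE) in Dp16_2xIFNRs, with 95% intervals from -0.28 to 0.46 and from -0.29 to 0.48. Differences inside these bounds were not detectable at 35 to 62 counts per library. Top2a, the topoisomerase that untangles replicated chromosomes, was at 1.75 ± 0.312, 1.42 ± 0.236 and 1.45 ± 0.291 CPM in WT, Dp16 and Dp16_2xIFNRs. Its log2 fold changes were -0.30 and -0.29, with edgeR adjusted p of 0.602 and 0.407.

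Cenpe, a kinesin that carries chromosomes to the spindle equator, was the only gene with a higher mean in Dp16 at an unadjusted p under 0.05. WT mice had 1.68, 2.03 and 2.60 CPM (lowest, median, highest), and Dp16 mice 2.12, 2.64 and 3.51 CPM. The Dp16_2xIFNRs mice, replicates 1 to 5, had 2.65, 2.30, 2.82, 2.32 and 2.79 CPM. The groups overlapped, although no mouse with the duplication fell below the WT median. The log2 fold change was 0.35 ± 0.15 (SE) in Dp16, with an edgeR adjusted p of 0.476, and 0.29 ± 0.16 (SE) in Dp16_2xIFNRs, with an edgeR adjusted p of 0.361. Cenpf, another large kinetochore protein, had 0.30 and 0.20, with intervals that included 0. Cenpa, the histone variant that marks centromeres, had -0.34 and -0.26, and its intervals included 0 too.

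The remaining spindle genes had 95% intervals that included 0 in both duplication groups. Kif11, the motor that pushes spindle poles apart, had log2 fold changes of -0.016 in Dp16 and 0.022 in Dp16_2xIFNRs. Tpx2, which activates Aurora A on the spindle, had 0.015 and -0.018, and Prc1, which bundles microtubules of the midzone, 0.078 and 0.0056. Kif20a, a kinesin of cytokinesis, had 0.17 and 0.0037, and Nusap1, a spindle microtubule binder, 0.25 and -0.051. Over the 10 genes of this role the median was 0.084 in Dp16, with 7 of 10 above 0, and 0.0046 in Dp16_2xIFNRs, with 6 of 10 above 0.

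**Figure D4:**
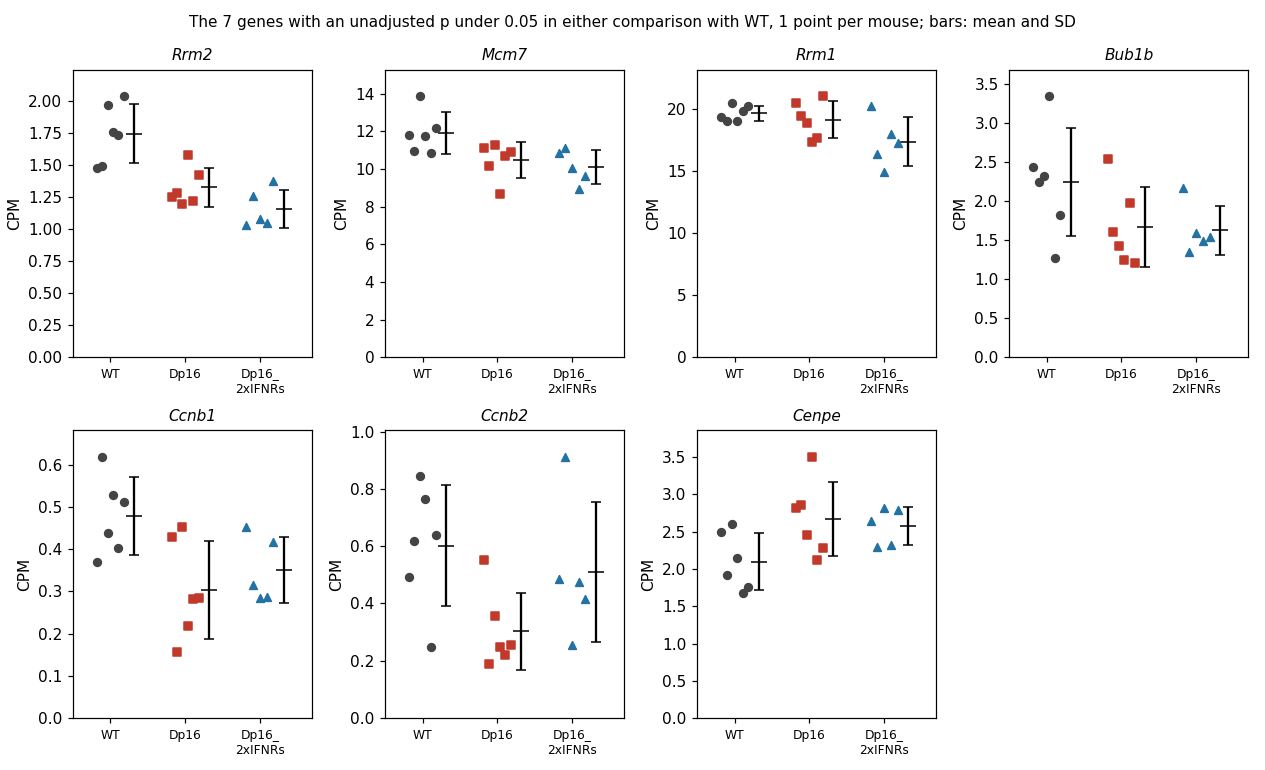
CPM per mouse (vertical axes from 0) of the 7 genes with an unadjusted p under 0.05 in Dp16 or Dp16_2xIFNRs against WT, with 1 point per mouse and the mean and SD beside the points. Only for Rrm2 do all 5 Dp16_2xIFNRs mice (1.03 to 1.38 CPM) lie below all 6 WT mice (1.48 to 2.04 CPM), and the other panels overlap.

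Sex was a term of the main fit, and 0 of the 30 genes differed between males and females in edgeR, beside 0.0685% of all tested genes. At an unadjusted p under 0.05 only Ccne1 did so, 0.13 higher in males on the log2 scale, beside 3.11% of all tested genes. limma-voom and DESeq2 called 0, with 1 and 2 at an unadjusted p under 0.05, and that edgeR count was 6 without WT replicate 4 and 0 to 2 without any other single library. A genotype effect that differs between sexes was called for 0 of 30 genes in edgeR, as for 0% of all tested genes, in both duplication groups. At an unadjusted p under 0.05, Birc5 (difference of 1.29) and Cenpa (difference of -0.91) stood out in Dp16, beside 2.82% of all tested genes. In Dp16_2xIFNRs there were 0, beside 2.63%. This count of 2 over both groups ran from 0 to 4 with single libraries left out, being 0 without WT replicate 2, Dp16 replicate 3 or Dp16 replicate 4, 1 without WT replicate 3, 4 or 6, Dp16 replicate 2 or 5 or Dp16_2xIFNRs replicate 4, and 4 without WT replicate 1.

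Mouse to mouse, no relation of the other genes with Mki67 passed the test. Over 17 mice, Pearson's r of log2 CPM with Mki67 had a median of 0.0758 over the other 29 tested genes and ran from -0.51 to 0.34. Of 37 relations computed, 29 with these genes and 8 with cell type markers, 0 passed after Benjamini-Hochberg adjustment of permutation p-values, by r or by Spearman's rho. The strongest was with Ccne1 (r of -0.51, permutation p of 0.0371, adjusted 0.751, and rho of -0.55, permutation p of 0.0243, adjusted 0.898), and r was -0.40 without the 2 mice farthest from the Mki67 median. The marker Pdgfra came close to it (r of 0.50, permutation p of 0.0406, adjusted 0.751, and rho of 0.41, permutation p of 0.0995, adjusted 0.951). The r of Mki67 with Top2a was 0.18 over all mice (permutation p of 0.498, adjusted 0.958, and rho of 0.15, permutation p of 0.574, adjusted 0.951). Within WT, Dp16 and Dp16_2xIFNRs, r with Mki67 was 0.75, 0.24 and -0.14 for Top2a and 0.97, -0.39 and 0.23 for Cenpe. These values within groups rest on few mice and were not tested. Between pairs of the 30 genes, deviations from the group means correlated with a median r of 0.0104 over 435 pairs that share libraries and depth. Counting error is part of this spread: for single genes it was 2.88% of the mean for Pcna, 14.7% for Mki67 and 28.8% for Ccnb1 per library. The biological coefficient of variation of the tested genes had a median of 18.5%, beside 14.1% in common for all tested genes.

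Markers of the cells that could divide were read beside these results, as summed CPM per mouse. Neural stem cell markers (8 genes) ranged from 176.7 to 234.1 CPM in WT, 204.1 to 253.4 CPM in Dp16 and 198.3 to 246.2 CPM in Dp16_2xIFNRs. Markers of intermediate progenitors and immature neurons (11 genes) ranged from 434.1 to 522.5 CPM in WT, 417.4 to 480.8 CPM in Dp16 and 381.4 to 449.6 CPM in Dp16_2xIFNRs. Stmn2, picked out after its values were seen because it gave most of this sum, had means of 315, 325 and 293 CPM in WT, Dp16 and Dp16_2xIFNRs. Oligodendrocyte precursor markers (8 genes) ranged from 341.1 to 376.2, 353.0 to 427.4 and 334.5 to 431.0 CPM. Olig1 and Olig2, which lie in the duplicated segment, were picked out after their values were seen. Their medians in WT, Dp16 and Dp16_2xIFNRs were 129.6, 169.1 and 157.3 CPM for Olig1 and 36.4, 45.7 and 47.1 CPM for Olig2. In Dp16 the medians of Pdgfra and Lhfpl3 also lay above WT, and those of Cspg4, Gpr17, Vcan and Bmp4 lay below. Higher values in Dp16 were thus not shared by all 8 genes, and their cause was not tested. Microglial markers (8 genes) ranged from 332.0 to 426.3, 328.5 to 383.0 and 319.2 to 372.8 CPM. Markers of pericytes and fibroblasts (8 genes) ranged from 275.4 to 316.9 CPM in WT and 277.7 to 328.0 CPM in Dp16. In Dp16_2xIFNRs they ranged from 320.3 to 366.6 CPM, above all WT mice. The genes did not share this: means of Dcn, Col1a1, Col1a2, Vtn and Lum lay above WT, and those of Rgs5, Pdgfrb and Kcnj8 below. Dcn had means of 42.9 CPM in WT and 64.9 CPM in Dp16_2xIFNRs, and Rgs5 128.1 and 126.0 CPM. Blood leukocyte markers (10 genes) ranged from 4.35 to 6.04, 3.90 to 8.38 and 6.76 to 9.13 CPM, and the last group again lay above all WT mice. None of these lists had a gene that passed in edgeR against WT, beside 0.548% of all tested genes in Dp16 and 1.02% in Dp16_2xIFNRs. Per list, 0 to 4 genes had an unadjusted p under 0.05, beside 9.42% and 16.8% of all tested genes. The lists held 8 to 11 genes, so 4 such genes are a larger share than either. The filter on low counts left 7 of 8 stem cell markers, 9 of 11 progenitor markers and 5 of 10 leukocyte markers to test. No marker was at 0 in all libraries, and the part of these markers in the Rrm2 values was not tested. Hippocampal neuron markers (8 genes) stood at 621.7 to 805.9 CPM over all mice, so the labelled tissue is present. Choroid plexus markers (10 genes) were nearly absent in 1 mouse of each group (63.5, 70.6 and 108 CPM, beside medians of 4453, 3277 and 3693 CPM in WT, Dp16 and Dp16_2xIFNRs). Without these 3 mice 0 of the 30 genes were called in any of the 3 comparisons.

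Around the 32 genes, 9 lists of other division genes gave the wider picture. Against WT, almost all calls were genes that also lie in the duplicated segment. Of all tested genes, 0.548% passed in Dp16 and 1.02% in Dp16_2xIFNRs. Besides the calls, the 2 genes with the most counts in each list are named, with their RPKM. Of 13 genes of origin recognition and licensing, 12 were tested and 0 passed in either duplication group, and Orc4 and Orc3 lay at 8.91 and 13.2 RPKM. Of 30 replication fork genes, 0 passed in Dp16 and 1, Donson, was higher in Dp16_2xIFNRs, while 8 and 6 of 30 had fold changes above 0 with medians of -0.078 and -0.065. Rpa1 and Rfc1 of this list lay at 13.3 and 9.25 RPKM. Of 10 genes of nucleotide supply, only Gart passed, higher in both groups, and Gart and Rrm2b, the p53-induced partner of Rrm1, lay at 10.8 and 13.5 RPKM. Rrm2b stood at 55.6 ± 5.55 CPM in WT, 65.8 ± 3.93 CPM in Dp16 and 63.7 ± 2.74 CPM in Dp16_2xIFNRs, and it did not pass.

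Of 25 genes of G1 cyclins, kinases and the E2F and RB families, 24 were tested and 0 passed, and Ccnd2 and Rbl2 lay at 12.8 and 11.7 RPKM. Of 15 tested CDK inhibitors and brakes, Btg3 and Dyrk1a passed as higher in both duplication groups. Dyrk1b, a kinase that favours exit from the cycle and lies outside the segment, passed as lower in Dp16 alone, at a log2 ratio of -0.32 to WT, with an edgeR adjusted p of 0.0334. Its level was 17.9 ± 1.43 CPM in WT, 14.4 ± 0.583 CPM in Dp16 and 16.2 ± 1.44 CPM in Dp16_2xIFNRs, where it was -0.14 (edgeR adjusted p of 0.324). Dyrk1a and Cdkn1b of this list lay at 17.5 and 14.1 RPKM. Of 18 genes of the anaphase-promoting complex and CDC25 0 passed, and Anapc5 and Anapc1 lay at 49.1 and 8.85 RPKM. Of 25 tested kinetochore and checkpoint genes, Mis18a passed as higher in both groups, and Bub3 and Hjurp lay at 12.2 and 9.55 RPKM. Of 21 tested spindle and cytokinesis genes 0 passed, and Cit and Anln lay at 7.04 and 8.99 RPKM. Of 15 cohesin and condensin genes 0 passed, and Rad21 and Smc1a lay at 38.7 and 19.3 RPKM. These calls against WT stand beside 0.548% of all tested genes in Dp16 and 1.02% in Dp16_2xIFNRs. At an unadjusted p under 0.05 against WT, the shares of all tested genes were 9.42% in Dp16 and 16.8% in Dp16_2xIFNRs. Beside these unadjusted shares, the counts in the same order were 2 and 1 of 12 tested for origin recognition, 3 and 5 of 30 for the fork, 3 and 2 of 10 for nucleotide supply and 4 and 6 of 24 for G1. The CDK inhibitors and brakes had 6 and 5 of 15, the anaphase-promoting complex 1 and 4 of 18, the kinetochore 2 and 1 of 25, spindle and cytokinesis 2 and 0 of 21 and cohesin and condensin 1 and 2 of 15. In Dp16_2xIFNRs against Dp16 0 genes of these lists passed in edgeR, beside 0.0158% of all tested genes. At most 3 per list had an unadjusted p under 0.05, beside 10.2% of all tested genes.

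Division genes inside the duplicated segment rose in most cases, and none of the 32 lies in it. Of 8 such genes, 6 rose in Dp16, beside 0.464% of all tested genes, and 7 in Dp16_2xIFNRs, beside 0.648%, with median log2 fold changes of 0.55 and 0.56. Gart, a purine synthesis enzyme, rose by 0.61 and 0.57, and Dyrk1a, a kinase that holds cells in quiescence, by 0.59 and 0.53. Mis18a, which loads CENP-A at centromeres, rose by 0.58 and 0.51, Hmgn1, a nucleosome binder, by 0.52 and 0.55, Btg3, an antiproliferative protein, by 0.47 in both, and Usp16, a histone H2A deubiquitinase, by 0.47 and 0.61. Donson, a replication fork protein, rose by 0.77 in Dp16_2xIFNRs and had 0.48 in Dp16 (edgeR adjusted p of 0.0906). Chaf1b, a histone chaperone subunit of the fork, had 1.24 and 0.82 at 0.193 CPM in WT and did not pass (edgeR adjusted p of 0.333 and 0.376).

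**Figure D5:**
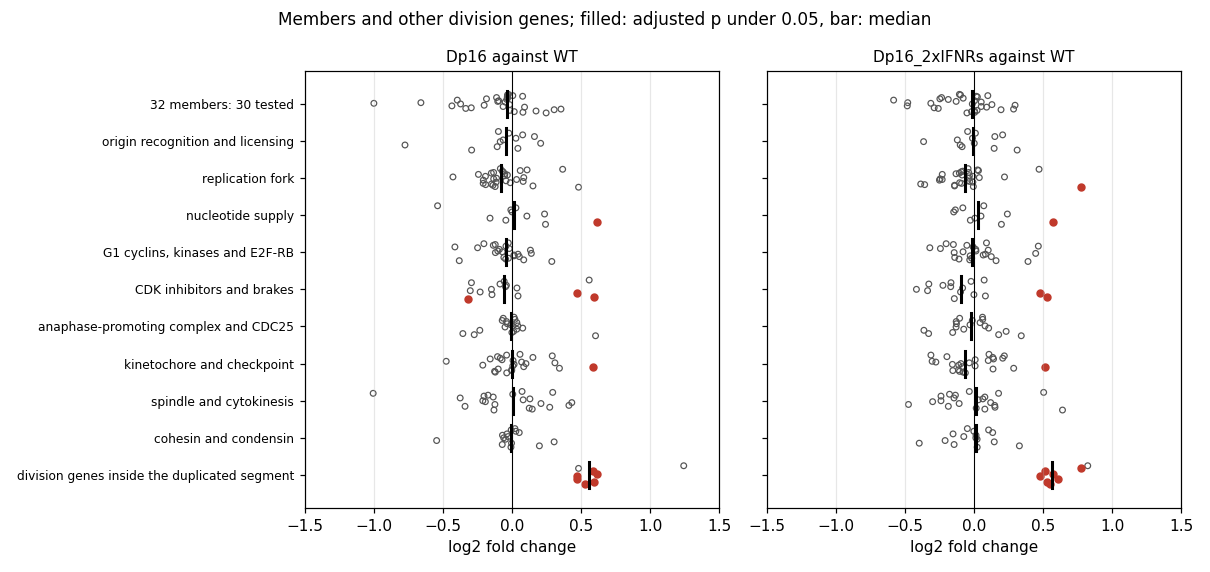
Log2 fold changes against WT of the 30 tested genes and of the other lists of division genes, 1 point per gene, with filled points for an adjusted p under 0.05 and a bar at the median, in Dp16 (left) and Dp16_2xIFNRs (right). The 30 genes centre on -0.037 and -0.015, the genes of the duplicated segment on 0.55 and 0.56, and a gene in several lists is drawn in each.

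Besides Mcm7, another 7 of the 32 genes share exon bases with a neighbour: Top2a, Ccna2, Plk1, Kif20a, Prc1, Nusap1 and Cdc20. Their values are less certain for the same reason. The neighbours with the most counts were Cdc23 beside Kif20a at 53.8 CPM, Exosc9 beside Ccna2 at 29.3 CPM, Elovl1 beside Cdc20 at 10.7 CPM and Rccd1 beside Prc1 at 6.39 CPM. In the segment list, Donson shares exon bases with Atp5o on its own strand and with Son on the other. Gart, Btg3 and Usp16 share them with Gm15964, Cxadr and Cct8 on the other strand. The values of these segment genes are less certain too.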

How the data were processed

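Polyadenylated RNA was sequenced with a strand-specific kit as paired reads, per the labels' protocols. Per the submitters' processing notes, reads were handled with HISAT2 2.1.0, HTSeq 0.6.1, SAMtools 1.5, bcl2fastq and FastQC 0.11.5, on GRCm38. Raw counts for each gene were deposited by the authors, 30.4 to 33.1 M per library. The authors also deposited RPKM, and counts and RPKM together implied the same gene length in every library (32131 genes checked, largest relative spread 6.25e-15). The strand setting of the counting is not given in the sources used here. Gene positions came from the GENCODE annotation of the same build.

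Counts were fitted in R 4.3.3 with edgeR 4.0.16: filterByExpr (minimum count 10) left 18983 genes, scaling was by TMM, and the quasi-likelihood fit to the 17 libraries had terms for genotype and sex (13 residual degrees of freedom). Tests were two-sided, with Benjamini-Hochberg adjustment over all tested genes and a threshold of 0.05. The code was tested on simulated data. Alternatives were DESeq2 1.42.0, limma-voom and limma-trend (limma 3.58.1, log2 of the deposited RPKM plus 0.1 or 1), size factors, no filter, 1 CPM in 5 libraries, other covariates, a threshold of 0.1, a block for the replicate number, a fit to just the 2 groups in question and leaving out each library. Each library is a separate mouse by its identifier. In 5 cases a mouse has the same second part of the identifier as a mouse of another group, and the labels do not say what that part means. The identifier series used as a covariate is the leading digit of that part. Correlations used permutation p-values with 100000 resamples. The genes and lists were chosen with earlier results of these data known. All 32 genes were named. From each other list, the genes that passed and the 2 with the highest mean CPM were named, with every gene of the segment list.

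Same-numbered mice of different groups had correlated deviations of 0.0772 on average (-0.216 to 0.471, 16 pairs), against -0.0141 for other pairs, so the numbers were not taken to pair the mice. For the 5 pairs that share the second part of the identifier the average was 0.0126 (-0.223 to 0.301).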

Additional observations from a re-analysis of the deposited data

Results flagged for a closer look

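Within a genotype, a library was picked out when its gap to the nearest other mouse was a larger share of the group's range than Dixon's 95% critical value. Of 108 sets of values examined, 7 held such a library, and chance gives about 1 in 20. Pcna was 42.2 CPM in Dp16_2xIFNRs replicate 1, beside 33.99 to 36.1 CPM in the other mice of its group. Bub1b was high in the same mouse, at 2.16 CPM beside 1.35 to 1.59 CPM. Mcm4 was 12.8 CPM in Dp16 replicate 4, beside 11.4 to 11.7 CPM. Cenpf was 0.745 CPM in Dp16 replicate 3, beside 1.31 to 1.62 CPM. Bub1 was 0.351 CPM in WT replicate 6, beside 0.130 to 0.205 CPM, at 11 counts. The sum of the 32 genes was lowest in Dp16 replicate 3, at 141.2 CPM beside 148.5 to 149.3 CPM, and the sum of the spindle and chromosome genes was highest in WT replicate 1, at 18.7 CPM beside 15.1 to 16.2 CPM.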

How the results depend on the processing

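Of 2865 fold changes of single genes recomputed under the alternatives, 2862 kept their side of the threshold or moved within the spread between mice, 3 passed the threshold and 0 called values turned. Values that were not called changed sign 167 times, in 40 of 90 pairs of gene and comparison. The count of genes called stayed at 0 in Dp16 against WT and in Dp16_2xIFNRs against Dp16 under every alternative run. In Dp16_2xIFNRs against WT it became 1, Rrm2, at an adjusted p under 0.1, with limma-trend on log2(RPKM + 1) and with DESeq2. With both duplication groups averaged it became 1, again Rrm2, at an adjusted p under 0.1, with limma-trend on log2(RPKM + 0.1) or log2(RPKM + 1) and with DESeq2. The cause was not tested. The median log2 fold change in Dp16 against WT moved from -0.037 to -0.11 with the identifier series as a covariate, and ran from -0.073 to -0.010 with 1 library left out. In Dp16_2xIFNRs against WT it ran from -0.085 (without WT replicate 3) to 0.0033. In Dp16_2xIFNRs against Dp16 it ran from -0.055 to 0.023. The ratios of summed CPM moved by less than the spread between mice under every alternative run.

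With the replicate number as a block, 0 genes were called in each comparison, and the medians were -0.034 in Dp16 against WT, -0.043 in Dp16_2xIFNRs against WT and -0.032 in Dp16_2xIFNRs against Dp16. Of 17 libraries, 5 correlated best with one of their own number.

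The fits without the 3 libraries that nearly lack choroid plexus markers, the alternatives for the averaged groups and for sex, and log2(RPKM + 0.1) for the correlations were chosen after seeing the data. Counts per library limit what can be seen: 9 of the 32 genes lay under 1 CPM, and their fold changes have wide intervals.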
